A study of Ovis aries with 9 samples.

Results

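The 7 ND genes of the sheep mitochondrial genome, ND1, ND2, ND3, ND4, ND4L, ND5 and ND6, were examined in whole ovaries of 9 ewes. They were taken as the rows with these names in a table of 27174 rows, and all 7 had enough reads to be among the 16871 genes tested. ND6 had been singled out, chosen by its counts in these libraries, which stood apart from those of the other 6, so its pattern over the libraries is given as a description. RNA-Seq was done with 1 library per ewe on 3 groups of 3 adult ewes, so p-values measure the spread between these animals. Han BB were Small Tail Han ewes homozygous for the FecB mutation of the BMPR1B gene (animals W1, W2 and W4). Han ++ were Small Tail Han ewes without this mutation (W6, W7 and W8). Dorset ewes, a breed of low fecundity, served as the controls (D4, D5 and D6). Estrus had been synchronized in every ewe with progestagen sponges and an injection of pregnant mare serum gonadotropin, and the ovaries were removed after a later, spontaneous estrus.

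Complex I, the entry point of electrons from NADH into the respiratory chain, is built from subunits of both genomes. Its ND subunits form the proton-pumping arm in the inner mitochondrial membrane. Mitochondrial DNA is transcribed from both strands into long precursors that are cut apart, mostly at transfer RNAs. Of the ND genes, ND6 is the one copied from the opposite template strand, the light strand of usual naming, and the RNA of the other 6 comes from the heavy-strand precursor with the rest of the mitochondrial mRNAs. In the ovary, steroid-producing cells and oocytes are rich in mitochondria. In whole ovaries, fewer cells of a type and less RNA per cell cannot be told apart.

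Library totals were between 10803913 and 20992535 counted reads. The 7 ND genes held 0.204% to 0.493% of them, and 16.9% to 32.6% of the reads on the 13 mitochondrial mRNAs. Their share of all reads was 0.325% ± 0.117 for the Dorset ewes, 0.357% ± 0.0989 for Han BB and 0.442% ± 0.0448 for Han ++ (SD, n = 3 each), and the groups overlapped. W4 and D6 stood apart from the other 7 libraries over the whole transcriptome: 18.6% of the tested genes were above, and 17.2% below, all 7 of them in both W4 and D6. The granulosa list had 6 of its 8 markers among the tested genes and the luteal list all 8, while FOXL2 and CYP19A1 have no row in the table. The position of ND3 on the mitochondrial chromosome (chrM) of Oar3.1 is 9469 to 9814 on the plus strand, and that of ND4L is 9885 to 10181 on the plus strand. Both positions come from the study's lists of differentially expressed genes, which held these members and no other ND gene. Neither ND3 nor ND4L was called in the tests below, which differs from the study. This difference is not particular to these members. Over all genes the study's lists were far longer than the calls made below. These were 0 in Han BB against Dorset, 1 in Han ++ against Dorset and 0 in Han BB against Han ++. ND4L and ND4 overlap by a few bases, as do the ends of ND5 and ND6, and the strand setting of the counting is not given in the sources used here. Reads from such overlaps, and from the 2 strands at any gene, cannot be told apart, and the counts of genes with near-identical nuclear copies are uncertain.

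ND4 and ND5, large subunits of the distal pumping arm, had the most even levels, given here as CPM, the reads scaled to a common library size with TMM factors. ND4 was at 1284, 1577 and 1559 CPM in W1, W2 and W4, at 1865, 2120 and 1990 CPM in W6, W7 and W8, and at 1663, 754 and 1529 CPM in D4, D5 and D6. ND5 was at 739, 839 and 969 CPM in W1, W2 and W4, at 1000.1, 1038 and 1137 CPM in W6, W7 and W8, and at 996, 492 and 754 CPM in D4, D5 and D6. All 3 Han ++ libraries were above all 3 of Han BB and all 3 of Dorset in both genes, and D5 was the lowest library in both. Han ++ was likewise above both other groups in ATP8 and CYTB, mitochondrial mRNAs outside the ND genes. Of all tested genes, 11.1% did not overlap between Han ++ and Dorset and 9.38% between Han BB and Han ++, in either direction. The share of all genes with Han ++ above both other groups was not computed. The biological coefficient of variation (the SD between animals relative to the level) was 0.323 for ND4 and 0.307 for ND5, against 0.472 over all tested genes.

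ND2, a membrane subunit of the proximal pumping arm, varied more. It was at 342, 431 and 1263 CPM in W1, W2 and W4, at 664, 1084 and 685 CPM in W6, W7 and W8, and at 647, 434 and 680 CPM in D4, D5 and D6. Its highest and its lowest library were both Han BB, W4 and W1, so that the Han BB range spanned those of the other groups. Relative to ND4, ND2 had 26.7 and 27.3 reads per 100 in W1 and W2 but 81.0 in W4, and between 34.4 and 57.6 in the other 6 libraries.

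ND3, a small subunit at the joint of the membrane arm and the matrix arm, lay at 212, 341 and 279 CPM in W1, W2 and W4, at 171, 205 and 250.0 CPM in W6, W7 and W8, and at 295, 73.0 and 175 CPM in D4, D5 and D6. The 3 groups overlapped. Per 100 reads of ND4, there were 16.5, 21.6 and 17.9 reads of ND3 in W1, W2 and W4, against 9.18, 9.67 and 12.6 in W6, W7 and W8. The Han BB and Han ++ libraries did not overlap in this ratio, which was not tested, and Dorset, at 17.8, 9.68 and 11.4 in D4, D5 and D6, overlapped both. The ratios of ND1, ND2, ND4L, ND5 and ND6 to ND4 overlapped between Han BB and Han ++.

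ND4L, the smallest ND subunit, shares its messenger with ND4 in mammals. Its level was 49.7, 80.9 and 131 CPM in W1, W2 and W4, then 108, 119 and 124 CPM in W6, W7 and W8, and 90.8, 42.1 and 203 CPM in D4, D5 and D6. W4 and D6 were above the other 7 libraries, and the Han ++ animals were close to each other, with an SD of 7.99 CPM around a mean of 117. Against ND4, ND4L had 8.39 reads per 100 in W4 and 13.3 in D6, and 3.87 to 6.21 elsewhere.

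ND1, which sits where the membrane arm meets the quinone site, had far fewer reads than any other member. It was counted 47, 72 and 77 times in W1, W2 and W4, 64, 118 and 61 times in W6, W7 and W8, and 59, 25 and 62 times in D4, D5 and D6. In CPM it was at 2.23, 5.04 and 5.15, then 3.05, 5.34 and 5.62, and then 5.74, 1.13 and 3.46 in the same order, and the groups overlapped. ND1 made up 0.0591% to 0.152% of the reads on the 7 genes. Of the other mitochondrial mRNAs, COX3 was low as well, at 4.60 to 24.7 CPM. Only uniquely mapped reads had been counted, and whether that lowered these 2 genes was not tested.

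**Figure D1:**
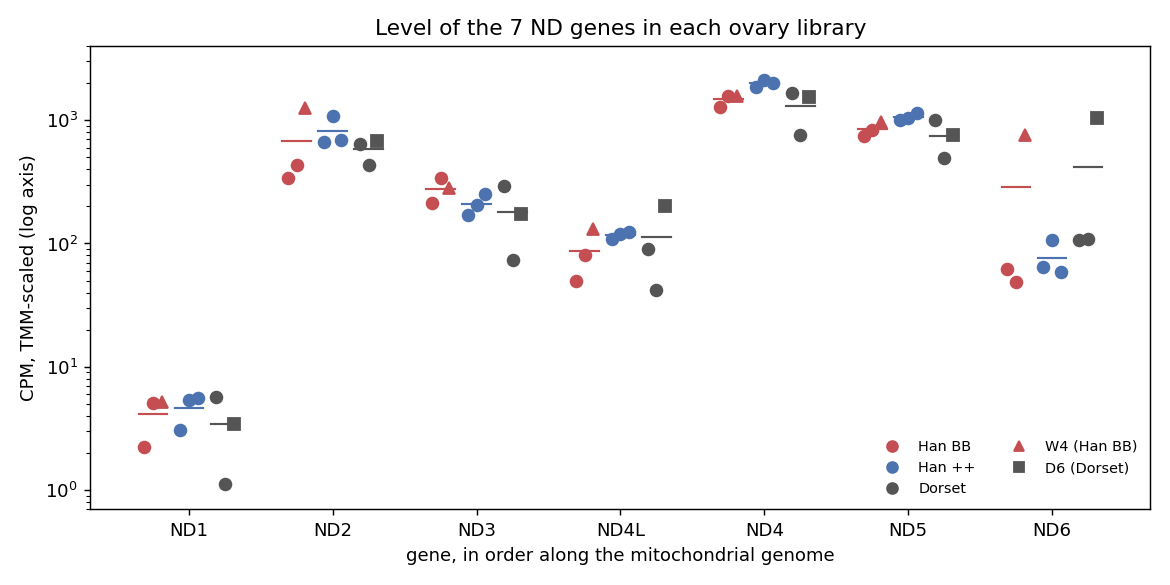
Level of each ND gene (CPM, log axis) in the 9 ovary libraries, with colours for the 3 groups, a triangle for W4, a square for D6 and a line at each group mean. ND1 lies under 6 CPM throughout, Han ++ is above the other groups in ND4 and ND5, and W4 and D6 are far above the other 7 libraries in ND6, at 754 and 1041 CPM.

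ND6, a membrane subunit next to ND4L, was the least even member. It was at 61.8, 48.3 and 754 CPM in W1, W2 and W4, at 64.9, 107 and 58.3 CPM in W6, W7 and W8, and at 106, 109 and 1041 CPM in D4, D5 and D6. W4 was 13.7 times the mean of the other 2 Han BB libraries, and D6 was 9.65 times the mean of the other 2 Dorset libraries. The other 7 libraries, from all 3 groups, stayed between 48.3 and 109 CPM.

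The share of ND6 in the reads on the 7 ND genes showed the same split. It was 15.2% in W4 (95% Wilson interval 15.0 to 15.5) and 23.7% in D6 (23.4 to 24.0), where the intervals cover counting error only. D5 came next with 5.74% (5.52 to 5.96), and the other 6 libraries held 1.37% to 2.80%. In reads, D6 had 18631 of ND6 and 13504 of ND5, its neighbour on the opposite strand, which is 138 per 100. In the Han ++ libraries, ND6 had 5.13 to 10.3 reads per 100 of ND5.

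**Figure D2:**
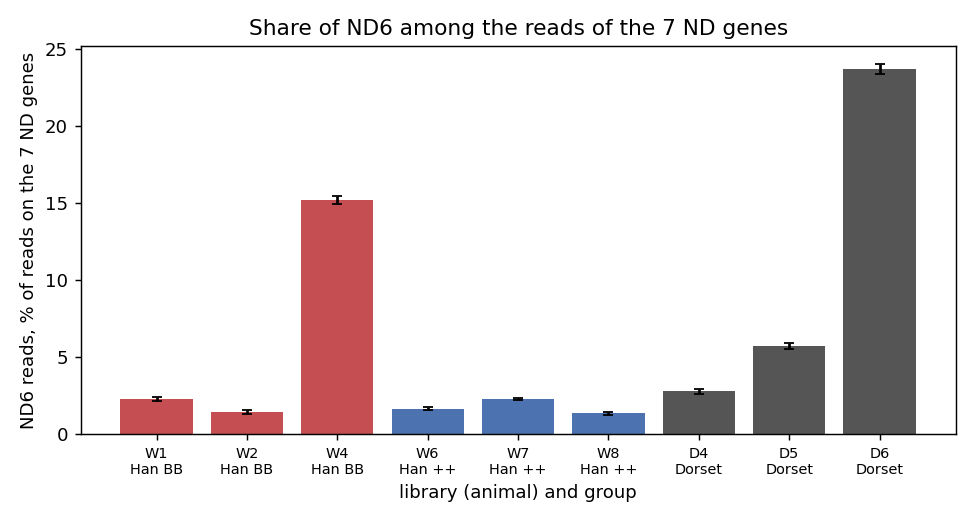
Reads of ND6 as a percentage of the reads on all 7 ND genes in each library, with 95% Wilson intervals for counting error. W4 (15.2%) and D6 (23.7%) are the highest bars, D5 (5.74%) is next, and the other 6 libraries lie between 1.37% and 2.80%.

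The neighbours of ND6 were examined next, chosen after their values had been seen. CYTB, which follows ND6 on the chromosome and encodes a complex III subunit on the heavy strand, was at 1574 CPM in W4 and 1075 CPM in D6, within the 592 to 2256 CPM of the other 7 libraries. ND5, on the other side, was within their range too. tRNA-Thr, beyond CYTB, reached 169 CPM in W4 and 201 CPM in D6, whereas it was at 9.30 to 95.5 CPM elsewhere. The 12 other heavy-strand transfer RNA rows whose names settle the strand were not highest in W4 and D6. They had 14 reads in all in W4 and 16 in D6, against 168 in D4, 58 in D5 and 0 to 15 in the other 5 libraries. Within Han BB, W1 had 0 and W2 had 1. With so few reads, these rows cannot show whether they shared the excess. The tRNA-Ser rows were left out because their names do not settle the strand. Of these, one had 27 reads in W4 and 106 in D6, against 1 to 38 elsewhere, and the other had 0 throughout.

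Transfer RNA genes on the same strand as ND6 had few reads. tRNA-Glu, directly beside ND6, had 13 reads in W4 and 11 in D6 and 0 to 2 in the others. tRNA-Pro was at 5.95 and 4.30 CPM in W4 and D6 and at 0.811 to 3.89 CPM elsewhere. Summed over the 7 light-strand transfer RNAs with a single gene each, there were 121 reads in W4 and 145 in D6, against 18 to 59 in the other libraries. In CPM the sum was 8.09 in W4 and 8.10 in D6, and its highest value elsewhere was 5.74, in D4.

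Among all 16871 tested genes, 15 exceeded ND6 in the smaller of the 2 excesses, of W4 over the other Han BB and of D6 over the other Dorset libraries. This rank is a description only, because ND6 was chosen by its counts in these same libraries. The row LOC101101865, which took between 0.0107% and 14.9% of a library's reads, was at 722 CPM in W4 and 108 CPM in D6, below the 2255 to 169433 CPM of the others. How far the difference of W4 and D6 over the whole transcriptome accounts for their ND6 level was not tested.

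Levels of different genes were compared per length, as CPM per kb of gene, with lengths from RefSeq (assembly ARS-UI_Ramb_v3.0). The spans of ND3 and ND4L in Oar3.1, 346 and 297 bases, equal those lengths. Over the 9 libraries ND4 had the highest mean, 1156 ± 295 CPM per kb (SD, n = 9). It was followed by ND2 with 664 ± 292, ND3 with 643 ± 231, ND6 with 495 ± 698, ND5 with 486 ± 109 and ND4L with 355 ± 162 CPM per kb. ND1 was last with 4.28 ± 1.75 CPM per kb.

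Most neighbours in this order did not keep it in every library, and the differences between them were not tested. ND4 was above ND2 in 8 of 9 libraries, ND2 above ND3 in 5, ND3 above ND6 in 7, and ND5 above ND4L in 8. ND6 was above ND5 in only 2 libraries, W4 and D6, and its place in the order of means rests on these 2. ND1 was under ND4L in 9 of 9 libraries, by at least 50.8 times. ND4 came first in 7 libraries, and ND6 came first in W4 and D6, at 1428 and 1971 CPM per kb.

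**Figure D3:**
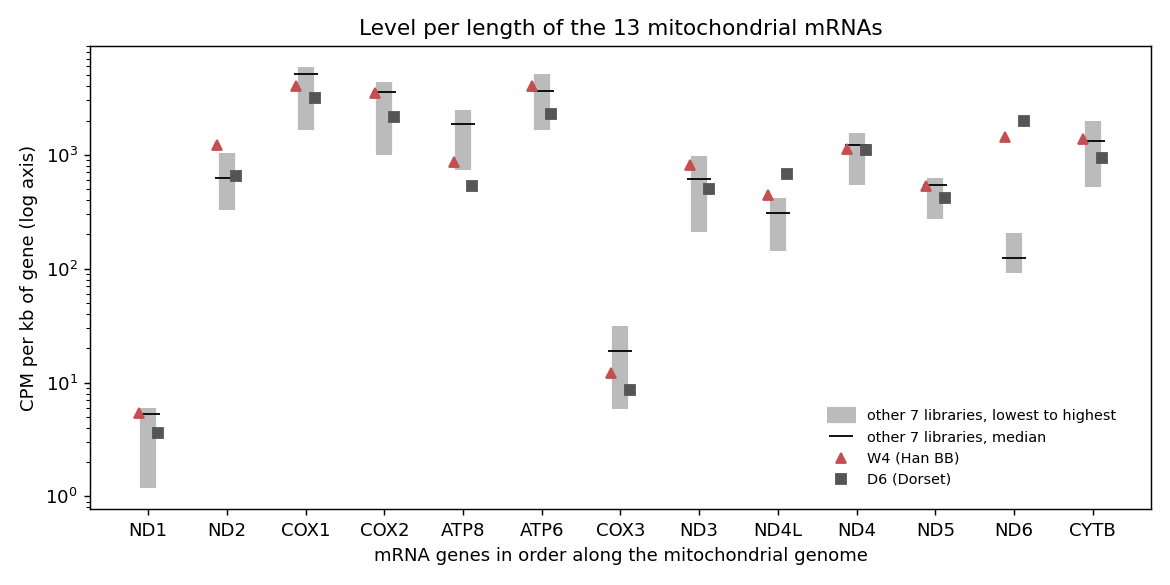
Level per length (CPM per kb, log axis) of the 13 mitochondrial mRNAs in their order on the chromosome, with grey bars from the lowest to the highest of the other 7 libraries, a dash at their median, a triangle for W4 and a square for D6. In ND6 both marked libraries lie far above the bar (1428 and 1971 CPM per kb), in ND4L they lie closer above it, and in CYTB and ND5 they lie within it.

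Across the 9 libraries, Pearson's r of log2 CPM between pairs of the 6 heavy-strand members ran from 0.25 (ND2 and ND3) to 0.95 (ND4 and ND5). With ND6, r of these members ran from -0.10 to 0.59. All of these values share the library totals. The genes most like the mean of the 6 heavy-strand members were NUP210L (r = 0.95), CYSLTR2 (0.94), LOC101112356 (0.93), LOC101116029 (0.93) and SERPINI2 (0.92). All were low, at 11.7 CPM or less. For the other mitochondrial mRNAs this r ran from 0.41 (COX3) to 0.89 (CYTB). The genes most like ND6 were GOPC (0.98), MAK16 (0.98), RBM17 (0.98), MSANTD2 (0.98) and LOC101119456 (0.98). Each was higher in W4 and D6 than in any other library, as were 18.6% of all tested genes. RBM17, which encodes a splicing factor, was at 199 and 225 CPM in W4 and D6 and at 74.2 to 115 CPM elsewhere.

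The first question put to the groups was whether the ND genes differed between the high-fecundity Han BB ewes and Dorset. No member passed edgeR's quasi-likelihood test. Of the 7 genes, 5 had a higher fitted level in Han BB and ND4L and ND6 a lower one, with a median log2 fold change of 0.18 against -0.0058 over all tested genes. ND3 had the lowest p. Its mean was 277 ± 64.6 CPM for Han BB against 181 ± 111 CPM for Dorset (SD, 3 ewes each), with a log2 fold change of 0.62 ± 0.44 (SE, edgeR adjusted p = 0.996). That change was 0.25 without D5 and 1.16 without D4, and 1.07 with limma voom, and in the latter 2 fits its unadjusted p was under 0.05 (adjusted p = 0.623 in edgeR and 0.381 in limma). ND6 had 288 ± 404 and 419 ± 538 CPM and a log2 fold change of -0.54 with a 95% interval from -2.90 to 1.82. Without W4 and D6 that change was -0.98, and ND2 went from 0.21 to -0.49. Without W4 alone the ND6 change was -2.96 (edgeR unadjusted p = 0.00774, not called), and without D6 alone it was 1.46.

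In that comparison 0 of 7 members and 0% of all tested genes passed an adjusted p under 0.05 with a fold above 1.5 either way. An unadjusted p under 0.05 was reached by 0 of 7 members and by 4.99% of all genes (842 genes). The groups did not overlap in 0 of 7 members and in 8.79% of all genes. DESeq2 called 41 genes and limma voom called 0, none of them a member, and DESeq2 gave ND6 no p because of its outlying counts.

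Han ++ against Dorset compared the breeds with Han ewes that lacked the FecB mutation. The FecB genotype of the Dorset ewes is not given in the sources used here. The 6 heavy-strand members had higher fitted levels in Han ++, by 0.06 (ND4L) to 0.60 (ND4) on the log2 scale, and ND6 a lower one, and none passed the test. ND4 had 1992 ± 128 CPM in Han ++ and 1315 ± 491 CPM in Dorset, with a log2 fold change of 0.60 ± 0.34 (SE, edgeR adjusted p = 0.9999). ND5 had 1058 ± 71.0 and 747 ± 252 CPM and a log2 fold change of 0.50 ± 0.32 (SE, edgeR adjusted p = 0.9999). Without D5 the changes were 0.32 for ND4 and 0.28 for ND5, and without D4 they were 0.80 and 0.76. With limma voom they were 0.90 and 0.72. Both genes had an unadjusted p under 0.05 without D4 and with limma voom, but the adjusted p in limma was 0.309 for ND4 and 0.372 for ND5. ND6 had 76.8 ± 26.5 and 419 ± 538 CPM, a log2 fold change of -2.45 with a 95% interval from -4.93 to 0.04 and an edgeR adjusted p of 0.957. The edgeR unadjusted p of ND6 was 0.00756 without W4 and 0.0136 with no filter on low counts, and neither fit called it. Its fold change rests on D6: it was -0.49 without D6 alone, and without both W4 and D6 it was -0.49. ND4L moved from 0.06 to 0.83 in the same fit, with an unadjusted p under 0.05 and an edgeR adjusted p of 0.510.

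The median over the 7 members was 0.45, against -0.06 over all genes. By the rule of adjusted p and fold, 0 of 7 members and 0.00593% of all genes (1 gene) were called. In the filtered edgeR fit of all 9 libraries, no member and 5.27% of all genes (889 genes) had an unadjusted p under 0.05. The groups did not overlap in 2 of 7 members, ND4 and ND5, and in 11.1% of all genes. DESeq2 called 76 genes and limma voom 0, again with no member among them.

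Between Han BB and Han ++, ewes of 1 breed that differ in the FecB genotype, 5 of 7 members had a lower fitted level in Han BB and ND3 and ND6 a higher one. The log2 fold changes were -0.43 ± 0.34 for ND4, -0.32 ± 0.32 for ND5 and 0.41 ± 0.44 for ND3 (SE, edgeR adjusted p = 0.999 for each). ND6 had a log2 fold change of 1.91 with a 95% interval from -0.53 to 4.35 (edgeR adjusted p = 0.999), which became -0.49 without W4 and D6. In that fit ND2 fell by 1.08 ± 0.34 and ND4L fell by 0.85 ± 0.34 (log2, SE), both with an unadjusted p under 0.05 and an edgeR adjusted p of 0.993. With limma voom ND2 was at -0.94 and ND4L at -0.87, both with an unadjusted p under 0.05 and limma adjusted p of 0.646 and 0.659. With no filter on low counts, ND6 had an edgeR unadjusted p of 0.0442 and was not called.

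The median of the members was -0.26, against 0.04 over all genes. The same rule called 0 of 7 members and 0% of all genes, and an unadjusted p under 0.05 was found for 0 of 7 members and 1.97% of all genes (332 genes). ND4 and ND5, 2 of 7 members, did not overlap between the groups, as did 9.38% of all genes. DESeq2 and limma voom called 2 genes each, neither of which was a member. A test for any difference among the 3 groups called 0% of all genes in edgeR (665 genes had an unadjusted p under 0.05), 65 genes in DESeq2 and 0 in limma voom. ND6 had the lowest p of the members in that test, with an edgeR adjusted p of 0.99998. The 3 pairwise comparisons share their libraries, so they are not independent of each other.

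**Figure D4:**
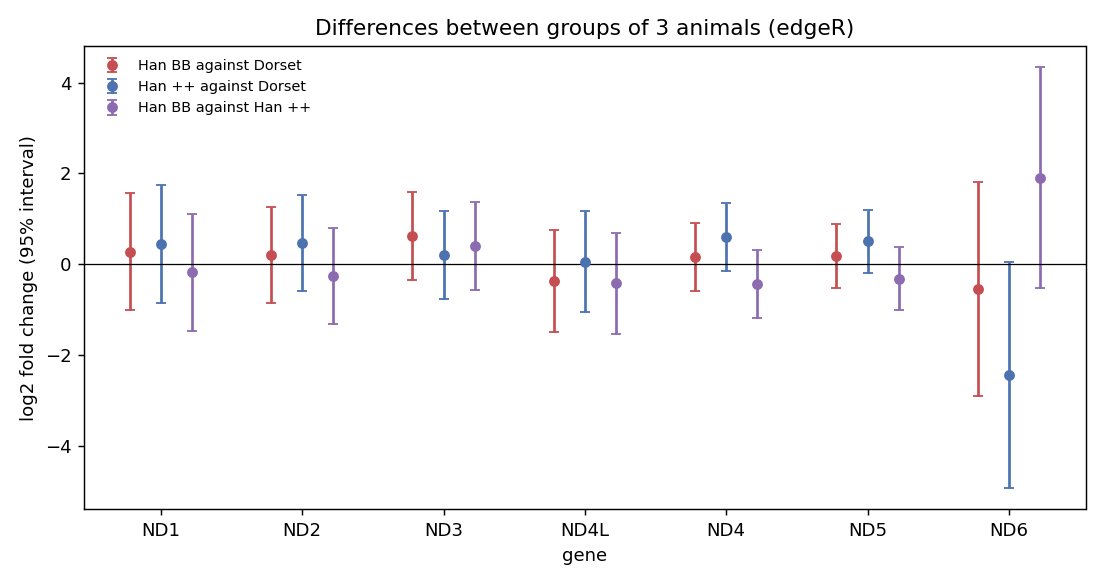
log2 fold change of each ND gene between groups of 3 animals, with 95% intervals, from 1 edgeR fit of all 9 libraries. Every interval spans 0, and those of ND6 are the widest, from -4.93 to 0.04 in Han ++ against Dorset.

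The other 6 mitochondrial mRNAs (COX1, COX2, COX3, ATP6, ATP8 and CYTB) had higher fitted levels in both Han groups than in Dorset, with medians of 0.47 in Han BB and 0.86 in Han ++ on the log2 scale and 0 calls. An unadjusted p under 0.05 was found for 1 of 6 (COX3) in Han BB against Dorset and for 4 of 6 (ATP6, ATP8, COX3 and CYTB) in Han ++ against Dorset. The groups did not overlap in the same 4 genes in Han ++ against Dorset, beside 11.1% of all genes. They did not overlap in 1 of 6 (ATP6) in Han BB against Dorset, beside 8.79% of all genes. Between Han BB and Han ++ they did not overlap in 2 of 6 (ATP8 and CYTB), beside 9.38% of all genes. D5, the lowest library for 5 of the 6 heavy-strand ND genes, was also the lowest for COX1, COX2, COX3, ATP6 and CYTB.

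Complex I also needs nuclear genes, whose protein products are imported. Of its 7 nuclear core subunits, which carry the flavin and the iron-sulfur clusters, 6 were tested, and 4 had higher fitted levels in Han BB than in Dorset and 3 in Han ++ than in Dorset. NDUFS1, the one not tested, was at 0 to 1.17 CPM. Of 30 accessory subunits 28 were tested, with 23 higher in Han BB and 16 higher in Han ++ than in Dorset. None of these subunits was called or had an unadjusted p under 0.05. The medians were 0.056 and -0.025 for the core subunits and 0.17 and 0.10 for the accessory subunits on the log2 scale, and stood beside -0.0058 and -0.06 over all genes.

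The accessory subunits also differed by library. Their summed level was 1131 CPM in both W4 and D6 and 1275 to 2424 CPM in the other 7 libraries. Of the 28, 15 were below the other 7 libraries in both W4 and D6 and 0 were above. This stands beside 17.2% below and 18.6% above over all tested genes, and it runs the other way from ND6 and ND4L.

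Assembly factors of complex I, which help to put its modules together, were tested for 13 of 16. All 13 had higher fitted levels in Han BB than in Dorset, 8 of 13 in Han ++ than in Dorset, and 0 were called. TMEM126B, which acts in assembling the ND2 module, was the only one with an unadjusted p under 0.05. Its mean level was 4.57 CPM for Han BB against 2.15 CPM for Dorset, with a log2 fold change of 1.07 ± 0.45 (SE, edgeR adjusted p = 0.975).

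Genes that transcribe, process, degrade or replicate mitochondrial nucleic acids gave 0 calls by edgeR in any pairwise comparison, and 0 of them had an unadjusted p under 0.05. The transcription list had 3 of 9 genes tested (TFAM has no row), with 1 higher in Han BB and 0 in Han ++ than in Dorset. The RNA processing and stability list had 17 of 19 tested, with 12 and 9 higher. The replication list had 4 of 8 tested, with 2 and 1 higher. The list for mitochondrial content, such as outer membrane and matrix proteins, had 10 of 12 tested, with 3 higher in each Han group.

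Within the RNA processing and stability list, 7 of 17 genes were above the other 7 libraries in both W4 and D6 and 4 were below, beside 18.6% and 17.2% of all genes. SUPV3L1 and PNPT1, the helicase and the nuclease of the mitochondrial RNA degradosome, were named after their values had been seen. SUPV3L1 was at 58.1 and 47.4 CPM in W4 and D6 and at 24.0 to 30.1 CPM elsewhere, and PNPT1 was at 101 and 78.8 CPM against 38.6 to 62.6 CPM. GRSF1, a binding protein of mitochondrial RNA, was at 170 and 181 CPM against 95.4 to 126 CPM. REXO2, an oligoribonuclease, went the other way, at 55.9 and 67.2 CPM against 107 to 373 CPM. FASTK (5.95 and 9.83 CPM), TBRG4 (7.69 and 12.7 CPM) and HSD17B10 (26.2 and 30.9 CPM) were the other genes below in W4 and D6, and LRPPRC, FASTKD1, FASTKD2 and TRMT10C were the other genes above. Their part in the ND6 level was not tested.

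Summed levels of marker lists are given beside these results. No list sum separated Han ++ from both other groups, but single markers did. FOXJ1 (8.32 to 11.2 CPM in Han ++) and TFF3 (9.58 to 10.9 CPM) were above both other groups without overlap. ZP2 (1.84 to 2.91 CPM) and PDGFRA (618 to 787 CPM) were below both without overlap. These markers were picked out after their values had been seen, and the other genes of their lists overlapped. RSPH1, CAPSL and HYDIN were highest in W4 of Han BB, at 67.4, 53.7 and 65.6 CPM. Of all tested genes, 11.1% did not overlap between Han ++ and Dorset and 9.38% between Han BB and Han ++. The oviduct secretory list (4 of 4 genes tested) summed to 783 to 1850 CPM in Han ++, 854 to 1125 CPM in Han BB and 379 to 722 CPM in Dorset. The ciliated epithelium list (7 of 8 tested) summed to 152 to 205 CPM in Han ++, 92.0 to 271 CPM in Han BB and 82.7 to 175 CPM in Dorset. Stress and handling genes (7 of 9 tested) summed to 172 to 255 CPM in Han ++, 202 to 346 CPM in Han BB and 425 to 595 CPM in Dorset. The sum of the stress list was lower in either Han group than in Dorset without overlap. The oviduct sum was higher without overlap, but it was nearly all OVGP1, the oviductal glycoprotein, at 371 of 379 CPM in D5. Of its other genes TFF3 had log2 fold changes of 2.66 in Han BB and 3.85 in Han ++ against Dorset (edgeR adjusted p = 0.749 and 0.203). PAX8 had log2 fold changes of -0.52 in Han BB and 0.36 in Han ++ against Dorset. Those of MSX1 were -0.095 in Han BB and -1.03 in Han ++ against Dorset, and none of these 3 genes passed the test. Luteal markers (8 of 8 tested), from cells rich in mitochondria, overlapped among the groups, at 663 to 1039, 509 to 1141 and 401 to 1163 CPM. The other marker lists summed as follows in Han ++, Han BB and Dorset. Granulosa markers (6 of 8 tested) were at 345 to 596, 336 to 545 and 535 to 792 CPM, theca markers (5 of 5 tested) at 65.0 to 147, 68.7 to 112 and 133 to 194 CPM, and oocyte markers (6 of 8 tested) at 8.10 to 17.6, 14.1 to 23.9 and 16.2 to 23.3 CPM. In the same order, immune markers (6 of 6 tested) had 662 to 1018, 602 to 1256 and 472 to 960 CPM, while smooth muscle and stroma markers (8 of 8 tested) had 8541 to 11471, 9287 to 11469 and 9213 to 13113 CPM. No listed red blood cell marker was tested. What part these cells or genes had in the ND levels was not tested.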

How the data were processed

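The authors mapped paired reads to the sheep genome Oar3.1 with TopHat, using its default settings, and deposited unnormalized counts of uniquely mapped reads per gene for 9 libraries. How the reads were counted, whether strand was used and which TopHat version was run is not given in the sources used here. The library kit is named in 2 ways, as stranded with ribosomal depletion in the methods and as another Illumina kit in the labels.

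The counts were analysed with edgeR 4.0.16 in R 4.3.3: TMM scaling, edgeR's expression filter by group, 1 quasi-likelihood fit of 3 groups, and Benjamini-Hochberg adjustment over 16871 genes. The thresholds are those of the study, which used DESeq. Alternatives used DESeq2 1.42.0, limma 3.58.1, other scalings and filters, fits of 2 groups, a term for W4 and D6, and fits without libraries. The scripts were tested on simulated data. Correlations used log2 CPM with a prior count of 0.5. Apart from the members, genes were named from pathway lists (the 6 other mitochondrial mRNAs, and genes with an unadjusted p under 0.05) and by likeness (the 5 highest r). NDUFS1, RBM17's levels, some markers, the transfer RNAs and the RNA degradation genes were singled out after their values were seen. The members and lists were chosen with earlier results of these data known. PCR reads are not independent molecules, and no sequences were printed because none were given.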

Additional observations from a re-analysis of the deposited data

How the results depend on the processing

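Over 399 alternative values of the 21 log2 fold changes, 0 were called and 19 changed sign, 13 of them on leaving out 1 library; 10 of the 21 never changed sign. ND2 in Han BB against Dorset was -0.36 with limma voom, -0.032 with a term for W4 and D6 and -0.49 without both. ND6 in Han BB against Han ++ was -0.12, -0.39 and -0.49 in these fits. The cause was not tested. On leaving out each library in turn, Han BB against Dorset ran from -0.13 to 0.85 for ND1, -0.62 to 0.55 for ND2, -0.10 to 0.36 for ND4, -0.80 to 0.42 for ND4L, -0.029 to 0.44 for ND5 and -2.96 to 1.46 for ND6. Han BB against Han ++ ran from -0.39 to 0.13 for ND1, -1.08 to 0.061 for ND2 and -0.49 to 2.42 for ND6, and Han ++ against Dorset from -0.17 to 0.74 for ND3 and -0.34 to 0.82 for ND4L. Calls over all genes for Han BB against Dorset, Han ++ against Dorset and any difference were 0, 1 and 0 in the main edgeR fit. They were 41, 76 and 65 with DESeq2 and 2, 11 and 4 with no filter. With the term for W4 and D6 they were 1, 78 and 16, and without W4 and D6 they were 2, 22 and 5. Leaving out 1 library gave 0 to 1, 0 to 5 and 0 to 3, with the highest of each without W4. Han ++ against Dorset had 0 calls in the fit of 2 groups and with limma voom. Han BB against Han ++ had 0 calls in the main edgeR fit and 2 with DESeq2 and with limma voom. Each library came from a different ewe, and the sources used here give no pairing between groups. The comparisons were therefore unpaired. The 3 animals per group and the spread between them limit these comparisons, and ND1 rests on 25 to 118 reads per library.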
